A study of Monascus purpureus with 9 samples.

Results

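The genes described here are 96 abundant transcripts of Monascus purpureus mycelium whose level in both a Set1 and a Swd3 knockout was less than 50% of the wild-type (WT) level. They were chosen by measured values, out of 8918 rows of the deposited table whose names start with gene_. A gene was a member if its mean over the WT libraries was at least 100 and under 1000 FPKM (sequenced fragments per unit of transcript length and of library size), if it was at least 2-fold lower in each knockout on the scale of log2(mean FPKM + 1), and if both changes lay within 1.5-fold of each other. Genes in a run of 3 or more consecutive gene numbers that were all at least 2-fold lower in both knockouts were left out.

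Monascus purpureus is a mould known for its azaphilone pigments, and the study asked what its COMPASS complex does for gene expression and pigment formation. COMPASS is a conserved complex that methylates histone H3 around the starts of transcribed genes. Set1 is its catalytic subunit, and Swd3 is a subunit of the core on which the catalytic domain assembles. In yeast and other fungi the mark accompanies active transcription, and loss of the complex is known to lower the transcripts of some genes and to raise those of others.

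The 9 RNA-seq libraries were 3 from a strain with the genotype label Set1 knockout, 3 from a strain labelled Swd3 knockout and 3 from the WT, each from mycelium grown for 2 days in PDB medium. Whether the 3 libraries of a genotype came from separate cultures is not stated in the labels, nor how many independent strains of a knockout were used, so the spread between libraries may be technical and the lost subunit cannot be told apart from the history of a strain. RNA was taken from whole mycelium, in which fewer cells that express a gene and less RNA per cell cannot be told apart. Summed FPKM were 722396 to 729434 in Set1 knockout, 708044 to 712844 in Swd3 knockout and 705678 to 715570 in WT libraries, and replicates correlated at 0.992 to 0.997 across the 9153 genes tested (Pearson's r on log2(FPKM + 1)). The table gives no read counts, so sequencing depth is unknown. It pairs no identifier with a gene name, a product or a position, and 0 of the 96 member identifiers were found among the 9270 entries of the reference gene list (assembly ASM2599979v1). The members are therefore named by their identifiers, without a statement on what they encode, and the Set1 and Swd3 genes could not be located to check the loss of the target in each knockout.

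Genes at this level were more often lower than higher without a COMPASS subunit. Of the 1035 gene_ rows at 100 to 1000 FPKM in WT, 518 stayed within 1.5-fold of WT in both knockouts, 31 were at least 2-fold higher in both and 114 were at least 2-fold lower in both. A further 26 were at least 2-fold lower in the Set1 knockout alone and 9 in the Swd3 knockout alone. Of the 114 genes, 15 stood in runs of falling gene numbers and 3 had changes at least 1.5-fold apart, which left the 96 members, 9.28% of their WT level class. A WT level picked from the same libraries favours genes that are lower elsewhere. Counted the other way, 86 gene_ rows had both knockout means at 100 to 1000 FPKM and lay at least 2-fold above WT.

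**Figure D1:**
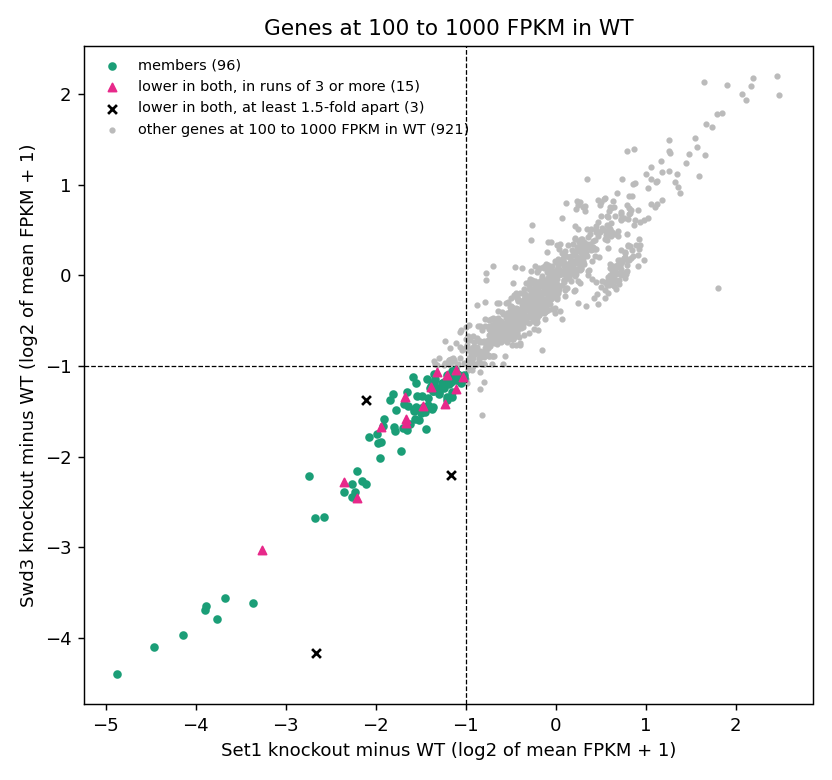
Each point is one of the 1035 genes at 100 to 1000 FPKM in WT, with its log2 change of mean FPKM + 1 in the Set1 knockout (x axis) and in the Swd3 knockout (y axis) against WT. The 96 members (green) lie below -1 on both axes (dashed lines), the 15 genes in runs (triangles) lie among them, and the 3 genes with changes at least 1.5-fold apart (crosses) lie off the diagonal.

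The share of genes that met the conditions on the fall varied with WT level. It was 7.13% of 2622 genes at 5 to 20 FPKM, 11.7% of 2024 genes at 20 to 50 FPKM, 9.97% of 983 genes at 50 to 100 FPKM, 10.3% of 562 genes at 100 to 200 FPKM and 11.1% of 280 genes at 200 to 400 FPKM. At 400 to 1000 FPKM it was 3.63%, with 7 members among 193 genes, and at 1000 FPKM and over 8 of 87 genes met the same conditions. Most members came from the lower part of the range, where most genes of the class lay. The numbers were 58 of 562 genes at 100 to 200 FPKM, 31 of 280 at 200 to 400 FPKM and 7 of 193 above. No row of the NewGene_ kind was eligible under the rule. Only 2 of those 951 rows had a WT mean of 100 to 1000 FPKM, and 0 of the 2 were at least 2-fold lower in both knockouts.

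In the typical member about 36% to 38% of the WT level was left. The median share left was 35.6% in the Set1 knockout, with a range of 2.66% to 49.0%, and 37.8% in the Swd3 knockout, with a range of 3.98% to 48.0%. As levels, the median of the group means was 58.1 FPKM for the Set1 knockout and 59.3 FPKM for the Swd3 knockout, against 179.7 FPKM for WT. The median log2 change was -1.47 for Set1 and -1.40 for Swd3, beside -0.16 and -0.21 for the other 939 genes of the same WT level. The choice of members fixes the direction and the smallest size of these changes, so they are a description and were not tested.

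Together the members held a smaller part of the summed FPKM in the knockouts than in WT. The choice of members fixes the direction of this change, so the sums and ranks given here are a description. Their summed FPKM was 6590 ± 104 in Set1 knockout, 6872 ± 239.7 in Swd3 knockout and 20552 ± 147 in WT libraries (SD, n = 3 each). That was 0.907 ± 0.0191%, 0.968 ± 0.0339% and 2.90 ± 0.0424% of all FPKM in the library. All genes of the WT level class together held 38.8 ± 0.340% of the sum in Set1 knockout, 36.0 ± 0.143% in Swd3 knockout and 38.3 ± 0.125% in WT libraries. Among gene_ rows ordered by mean level, the members stood between ranks 103 and 1101 in WT. Their median rank was 1635.5 in the Set1 knockout and 1631 in the Swd3 knockout, against 628.5 in WT. In each knockout 16 members were still among the 1000 most abundant genes, against 84 in WT.

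No member overlapped between either knockout and WT. All 3 Set1 knockout libraries were below all 3 WT libraries for 96 of 96 members, where the same held for 43.9% of the genes tested, and all Swd3 knockout libraries were below all WT libraries for 96 of 96 members, where it held for 42.4%. With limma on log2(FPKM + 1), an adjusted p under 0.05 and the lower direction, 96 of 96 members were called in the Set1 knockout (43.3% of genes tested) and 96 of 96 in the Swd3 knockout (42.5% of genes tested). Nothing is read from these counts, because the rule used both contrasts. The distance itself varied. The lowest WT library stood 1.78 times above the highest knockout library in the closest member and 21.7 times in the farthest, with a median of 2.36, and in 79 members it was more than 2-fold above every knockout library. The smaller of both falls was at least 8.21 times the pooled SD between replicates in all 96. The rule sets a lower limit on each fall, so the distances and this ratio are a description too.

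**Figure D2:**
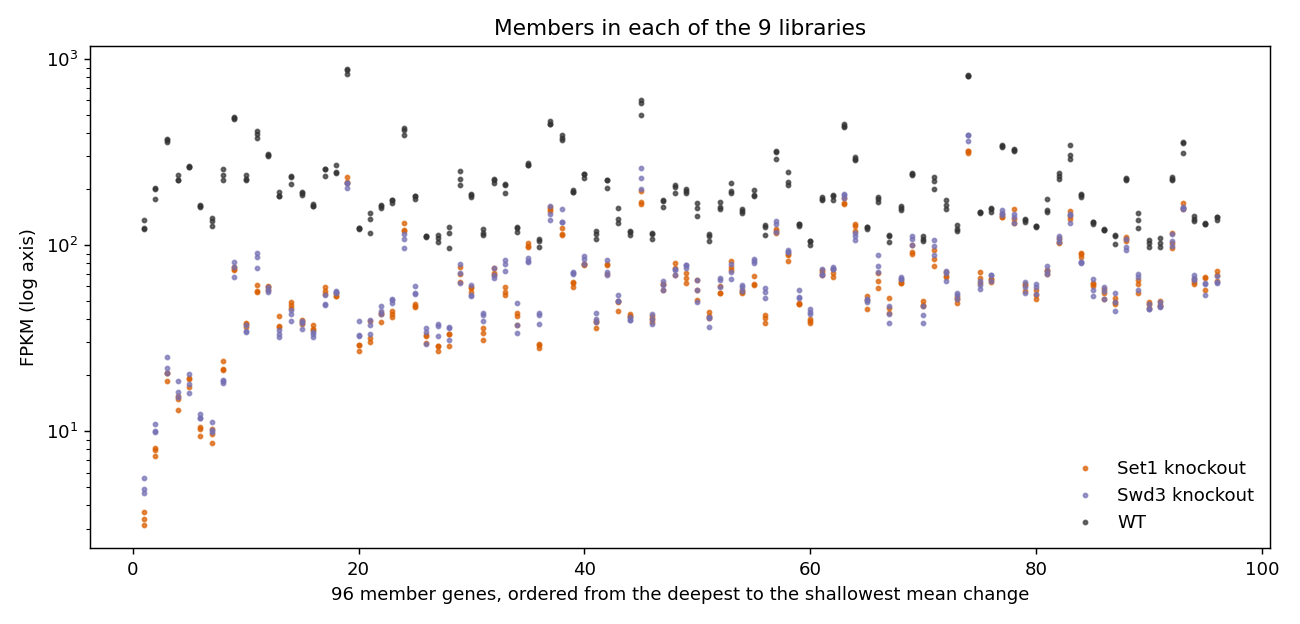
FPKM (log axis) of the 96 members in each of the 9 libraries, 3 points per gene for the Set1 knockout, the Swd3 knockout and WT, with genes ordered from the deepest to the shallowest mean log2 change. WT points lie at 95.99 to 887 FPKM over all members, and both knockouts lie below them in each gene, with 8 genes at the left whose means are under 25 FPKM in both knockouts.

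Most falls were between 2-fold and 4-fold. This held in both knockouts for 76 of the 96 members, while 18 were at least 4-fold and 8 of these at least 8-fold lower in both. By the mean of both log2 changes, 53 members lay between -1 and -1.5, 25 between -1.5 and -2, 10 between -2 and -3 and 8 below -3. Across members, Spearman's rho was -0.22 and Pearson's r was -0.15 between WT level and mean log2 change (n = 96 genes from the same 9 libraries). The change is itself computed from the WT level, and the rule limits both measures. The coefficients therefore describe the members and do not show how depth relates to abundance in general. The median changes of the 7 members at 400 FPKM and over, -1.65 for Set1 and -1.60 for Swd3, stood near those of the 58 members at 100 to 200 FPKM, -1.44 and -1.34.

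**Figure D3:**
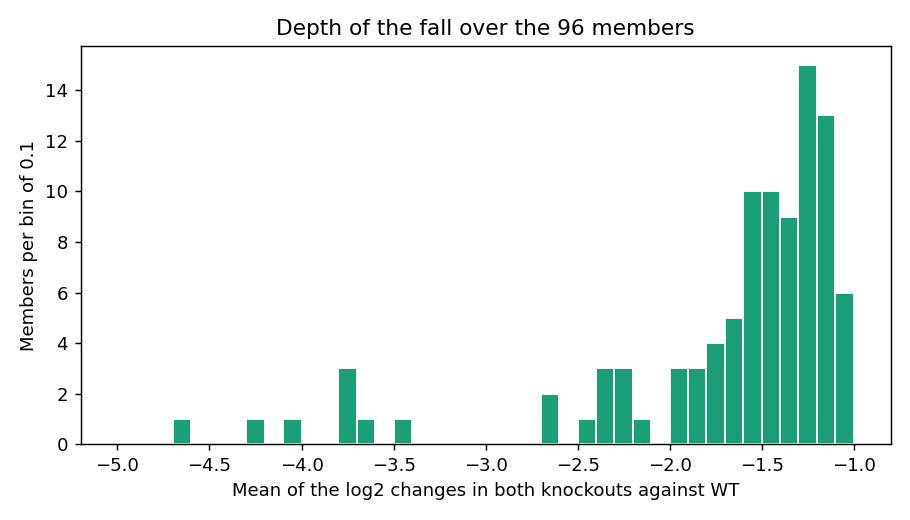
Number of members (y axis) per bin of 0.1 in the mean of the log2 changes of both knockouts against WT (x axis). The bulk of the members lies between -2 and -1, and 8 members below -3 are set off by an empty stretch of 0.81 from -3.49 to -2.68.

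The 8 members with the deepest falls were set apart from the other members along this measure. Among the members the widest gap between neighbouring values ran from -3.49 to -2.68, with a width of 0.81. The second widest, 0.36, lay inside the 8, between gene_8145 and gene_1122, and the widest among the other 88 members was 0.20. The gap holds for the members alone. Of the genes of the same WT level that the rule left out, gene_8025 (in a run of 3) at -3.15 and gene_4620 (changes over 1.5-fold apart) at -3.41 fell inside it, as did 7 genes with a WT mean of 20 to 100 FPKM. In the 8 genes 2.66% to 9.35% of the WT level was left in the Set1 knockout and 3.98% to 7.79% in the Swd3 knockout, whereas in the other 88 members 14.7% to 49.0% and 15.4% to 48.0% was left. The 8 genes were singled out after their values were seen.

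Gene_8145 had the deepest fall of the members. It had 3.12, 3.36 and 3.68 FPKM in Set1 knockout, 4.67, 4.90 and 5.63 FPKM in Swd3 knockout and 122, 137 and 123 FPKM in WT libraries. The Set1 knockout libraries were the lowest, the Swd3 knockout libraries lay just above them without overlap, and the WT mean was 37.6 times the Set1 and 25.2 times the Swd3 knockout mean. In rank among gene_ rows it stood at 7704 without Set1 and 7133 without Swd3, against 892 in WT.

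Gene_1122 had 7.39, 8.13 and 7.93 FPKM in Set1 knockout, 9.92, 10.1 and 10.9 FPKM in Swd3 knockout and 202, 177 and 199.9 FPKM in WT libraries. The order of the genotypes was the same as in gene_8145, again with no overlap. Gene_647, the most abundant of the 8 in WT, had 20.5, 20.5 and 18.7 FPKM in Set1 knockout, 25.1, 22.0 and 20.5 FPKM in Swd3 knockout and 367, 359 and 373 FPKM in WT libraries. Here the knockouts overlapped, and both lay more than 14 times below the lowest WT library.

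Gene_3089 had 15.0, 15.5 and 13.0 FPKM in Set1 knockout, 15.3, 18.6 and 16.3 FPKM in Swd3 knockout and 225, 239.5 and 224 FPKM in WT libraries. Gene_4719 had 19.1, 19.4 and 17.3 FPKM in Set1 knockout, 20.3, 18.0 and 16.1 FPKM in Swd3 knockout and 261, 268 and 264 FPKM in WT libraries. The ranges of the knockouts overlapped in both genes. Gene_184 had 10.3, 9.47 and 10.5 FPKM in Set1 knockout, 11.7, 11.8 and 12.5 FPKM in Swd3 knockout and 163, 163 and 161 FPKM in WT libraries, and its knockouts did not overlap. Gene_8810 had 10.2, 8.65 and 9.65 FPKM in Set1 knockout, 10.1, 11.2 and 9.87 FPKM in Swd3 knockout and 135, 126 and 139.8 FPKM in WT libraries. Gene_6289 was the one of the 8 with all Swd3 knockout libraries below all Set1 knockout libraries, at 21.4, 23.9 and 21.7 FPKM in Set1 knockout, 18.1, 19.0 and 18.7 FPKM in Swd3 knockout and 238, 256 and 223 FPKM in WT libraries.

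**Figure D4:**
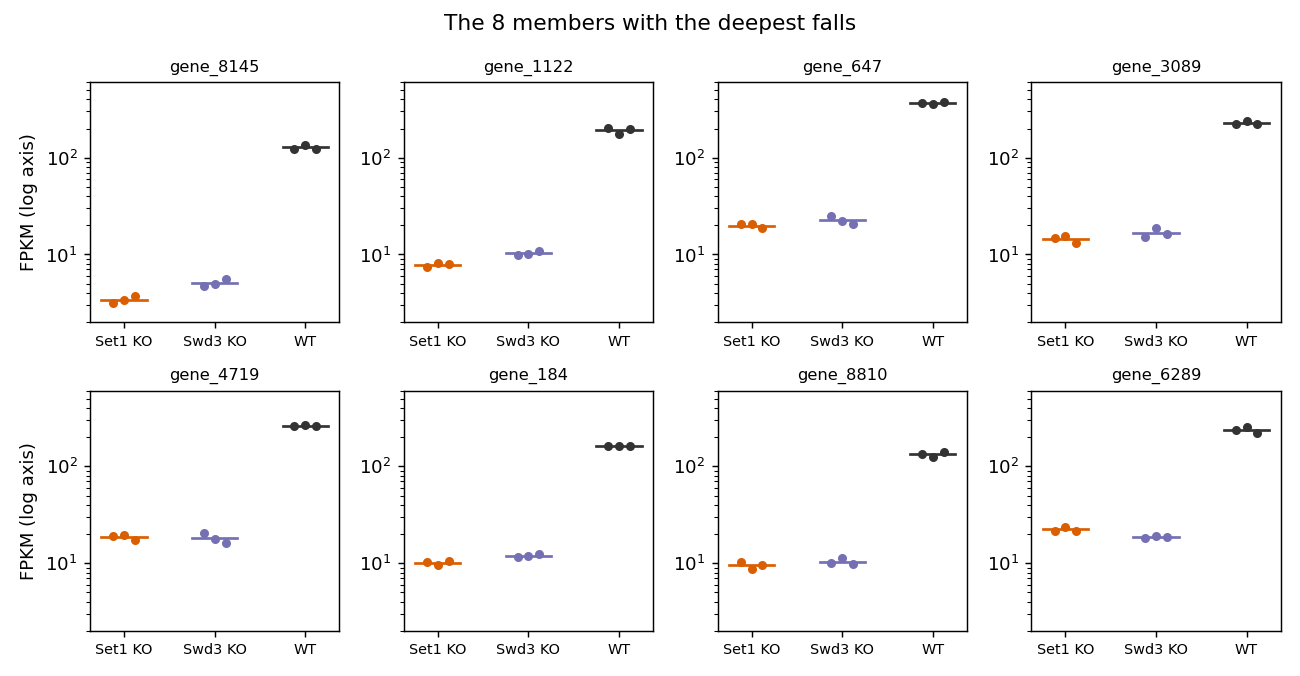
FPKM (log axis) of the 8 members with the deepest falls, one panel per gene, with a point per library and a bar at the mean of the 3 libraries of each genotype. All knockout points lie between 3.12 and 25.1 FPKM, and all WT points lie between 122 and 373 FPKM.

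The 3 members of highest WT level were gene_5376, gene_1614 and gene_5029. Their mean log2 changes were -1.98, -1.22 and -1.47, beside a median of -1.44 over the members. Gene_5376, first by WT mean, had 233, 216 and 219 FPKM in Set1 knockout, 216, 217 and 203 FPKM in Swd3 knockout and 873, 828 and 887 FPKM in WT libraries. Its log2 changes were -1.95 and -2.02, and its rank was 492 without Set1 and 498 without Swd3, against 103 in WT. Gene_1614 had 319, 321 and 314 FPKM in Set1 knockout, 391, 390.4 and 362 FPKM in Swd3 knockout and 819, 809.9 and 812 FPKM in WT libraries. It was the most abundant member in both knockouts, and the Set1 knockout libraries were the lower ones. Gene_5029 had 195, 171 and 167 FPKM in Set1 knockout, 258, 231 and 199.8 FPKM in Swd3 knockout and 579.8, 500.2 and 602 FPKM in WT libraries, with a wide spread in each genotype.

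Gene_1938 stood at the median of the mean log2 change and shows the common size of the fall. It had 68.8, 79.8 and 75.0 FPKM in Set1 knockout, 73.9, 74.2 and 69.3 FPKM in Swd3 knockout and 190.2, 205 and 212 FPKM in WT libraries, which left 36.8% and 35.8% of the WT mean. The replicates agreed best in gene_8353, with 62.4, 64.0 and 62.9 FPKM in Set1 knockout, 66.0, 67.8 and 65.5 FPKM in Swd3 knockout and 158, 162 and 154 FPKM in WT libraries (pooled SD 0.0287 log2 units). They agreed least in gene_7066 and gene_9828 (pooled SD 0.171 log2 units each). Gene_7066 had 43.3, 37.3 and 41.8 FPKM in Set1 knockout, 49.0, 33.8 and 37.3 FPKM in Swd3 knockout and 123, 118 and 125 FPKM in WT libraries, so Swd3 knockout replicate 1 stood apart. Gene_9828 had 39.3, 30.1 and 31.5 FPKM in Set1 knockout, 39.6, 37.3 and 33.5 FPKM in Swd3 knockout and 138, 117 and 149 FPKM in WT libraries. Even in these genes the knockouts stayed well below WT.

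The edges of the group were crowded, so its size depends on the limits. Inside the limits, 13 members had a change between -1 and -1.1 in at least 1 knockout, and 34 genes of the same WT level reached -0.9 in both but missed -1 in at least 1. Gene_2132 was the member closest to the limit in the Set1 knockout at -1.02, and gene_2260 just missed it at -0.99996 (61.1 ± 0.877 FPKM in the Set1 knockout, 55.1 ± 2.07 FPKM in the Swd3 knockout and 123 ± 1.63 FPKM in WT, SD, n = 3 each). In the Swd3 knockout gene_3798 was the last inside at -1.05, and gene_7263 just missed at -0.9994. By WT mean, gene_7447 at 102 ± 4.39 FPKM was the last member, and gene_2656 at 98.1 ± 3.65 FPKM was the first left out, although it was much lower in both knockouts (8.95 ± 0.354 FPKM in Set1 and 11.6 ± 0.622 FPKM in Swd3). The widest distance between both changes was 0.53 inside the rule, in gene_5039, and the narrowest outside was 0.73, in gene_2942.

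The knockouts were close to each other in most members. Group means of the Swd3 and the Set1 knockout lay within 10% of each other in 61 of the 96 members, and the median difference of the log2 changes (Swd3 minus Set1) was 0.03, beside -0.04 for the other genes of the same WT level and 0.02 for all gene_ rows. The Swd3 knockout mean was above the Set1 knockout mean in 57 members and below it in 39. The rule itself keeps this difference under 1.5-fold, so no size beyond that could appear, and the counts that follow are a description.

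Between the knockouts, 20 members were called higher in the Swd3 knockout (6.66% of the 9153 genes tested) and 4 were called lower (6.15% of genes tested), by limma at an adjusted p under 0.05, with a median absolute difference of 0.27 log2 units. Among the other 939 genes of the same WT level, 117 were called higher and 230 lower. All Swd3 knockout libraries lay above all Set1 knockout libraries in 25 members (15.8% of genes tested) and below them in 10 (12.4% of genes tested). By limma, 72 members were not called, with differences up to 0.20, which does not show that they were equal. Some of these 72, such as gene_5411, were among those without overlap. The split depends on the scaling. With every library set to a common total, 64.2% of all calls were higher in the Swd3 knockout, against 52.0% on the deposited values, and the members then had 22 higher and 2 lower calls, against 19 and 7 after median-of-ratios scaling. The 4 lower calls became 2 without Set1 knockout replicate 1, 2 or 3 and without WT replicate 1 or 3.

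**Figure D5:**
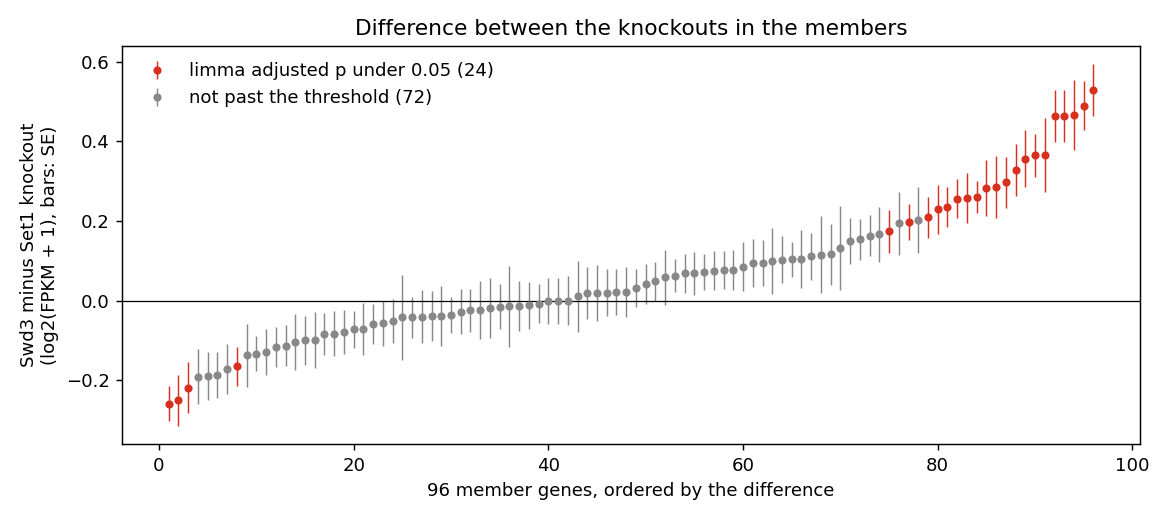
Swd3 minus Set1 knockout difference of mean log2(FPKM + 1) for each of the 96 members (y axis, bars show the limma SE), ordered by size, with the 24 called members in red. The differences run from -0.26 to 0.53, with 20 red points above and 4 below 0.

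The largest differences within the rule were those of gene_5039 and gene_93, both higher in the Swd3 knockout. Gene_5039 had 75.8, 86.7 and 90.3 FPKM in Swd3 knockout, 56.0, 56.9 and 61.0 FPKM in Set1 knockout and 393, 411 and 377 FPKM in WT libraries, a Swd3 minus Set1 difference of 0.53 (SE 0.06). Gene_93 had 42.2, 43.0 and 37.9 FPKM in Swd3 knockout, 29.0, 29.6 and 28.1 FPKM in Set1 knockout and 105, 108 and 97.6 FPKM in WT libraries, a difference of 0.49 (SE 0.06). In both genes the libraries of the knockouts did not overlap. The opposite order was largest in gene_4462, with 82.6, 85.5 and 81.3 FPKM in Swd3 knockout, 98.7, 103 and 97.3 FPKM in Set1 knockout and 271, 277 and 270.3 FPKM in WT libraries, a difference of -0.26 (SE 0.04), followed by gene_6289 at -0.25 (SE 0.06). The calls of gene_6289 and of gene_5029, at 0.37 (SE 0.09), were each lost when single knockout libraries were left out (for gene_6289 Set1 replicate 2 or Swd3 replicate 2, and for gene_5029 Set1 replicate 2 or 3 or Swd3 replicate 1 or 2), and that of gene_5029 also with no filter on low values. Of the 8 deepest members, 3 were called higher and 1 lower in the Swd3 knockout.

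Replicates of the members spread about as much as those of other genes once knockout levels were matched. The median SD between replicates was 0.0637 in the Set1 knockout, 0.0797 in the Swd3 knockout and 0.0463 in WT for the members (log2 units), and 0.0501, 0.0659 and 0.0532 for the other genes of the same WT level. In the Set1 knockout, the 48 members in the middle of the members' range had a median SD of 0.0583, beside 0.0630 for 852 other gene_ rows at that Set1 knockout level. In the Swd3 knockout the values were 0.0780 for 48 members and 0.0830 for 915 other rows. None of these measures entered the rule, and no test was made.

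Within the Swd3 knockout the members moved together between libraries. Swd3 replicate 1 was above the mean of its group in 71 of the 96 members, replicate 2 in 50 and replicate 3 in 26, with mean deviations of 0.05, -0.004 and -0.04 log2 units. The other genes of the same WT level leaned the same way less strongly, with 61.7%, 52.0% and 36.5% above the mean and mean deviations of 0.02, -0.0004 and -0.02. In the Set1 knockout 61, 44 and 37 members (63.5%, 45.8% and 38.5%) were above the group mean in replicates 1 to 3, beside 52.5%, 47.9% and 48.5% of the other genes. In WT 56, 45 and 49 members (58.3%, 46.9% and 51.0%) were above it, beside 47.9%, 50.1% and 51.0% of the other genes. The other genes were matched by WT level and not by knockout level. The shifts of the members between libraries were far smaller than the falls against WT.

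Members were scattered over the gene numbers. The table does not say that gene numbers follow the genome, so numbers are used here only as labels that may reflect order, and 1101 numbers up to 10020 have no row. Each stretch of 1000 numbers held 4 to 13 members, which was 3.88% to 11.8% of its genes at 100 to 1000 FPKM in WT, with the lowest share at 2001 to 3000 and the highest at 7001 to 8000. Of the 96 members, 74 had no directly adjacent gene that was at least 2-fold lower in both knockouts, and 22 stood in a pair of such genes. The rule leaves out runs of 3 or more, so no group larger than a pair could appear. An adjacent number without a row counted as no such gene. Both counts are therefore a description. In 16 of the 22, the partner was less abundant in WT, at 14.8 to 90.8 FPKM, and so outside the rule.

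The other 6 formed 3 pairs of members with consecutive numbers. Gene_3704 had 89.3, 90.9 and 86.0 FPKM in Set1 knockout, 80.9, 80.0 and 81.5 FPKM in Swd3 knockout and 189, 181 and 187 FPKM in WT libraries. Gene_3705 had 141, 147 and 141 FPKM in Set1 knockout, 154, 145 and 149.7 FPKM in Swd3 knockout and 342, 343 and 335 FPKM in WT libraries. Gene_3704 and gene_3705 kept similar shares, 47.8% and 42.1% in the Set1 knockout and 43.5% and 44.0% in the Swd3 knockout, although gene_3705 had the higher FPKM in each genotype. Gene_9843 had 76.7, 63.7 and 70.1 FPKM in Set1 knockout, 79.2, 70.7 and 62.5 FPKM in Swd3 knockout and 227, 211 and 249 FPKM in WT libraries. Gene_9844 had 32.7, 32.5 and 29.9 FPKM in Set1 knockout, 34.1, 35.8 and 29.5 FPKM in Swd3 knockout and 113, 110.3 and 112 FPKM in WT libraries. They were also alike in what was left, 30.6% and 28.4% in the Set1 knockout and 30.9% and 29.7% in the Swd3 knockout. Gene_5491 had 63.1, 62.3 and 59.4 FPKM in Set1 knockout, 72.0, 70.6 and 69.7 FPKM in Swd3 knockout and 192, 192 and 197 FPKM in WT libraries. Gene_5492 had 38.5, 39.6 and 37.8 FPKM in Set1 knockout, 39.1, 35.5 and 38.0 FPKM in Swd3 knockout and 190.3, 185 and 193 FPKM in WT libraries. Their WT ranges overlapped, but gene_5491 kept 31.8% without Set1 and 36.5% without Swd3 and gene_5492 kept 20.4% and 19.8%. Neighbours by number could thus share the size of the fall or differ in it.

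The genes next to the members, taken by number, were only slightly lower than WT. Of the 158 rows 1 number away from a member, 22 (13.9%) were at least 2-fold lower and 11 (6.96%) at least 2-fold higher in both knockouts, with median log2 changes of -0.27 for Set1 and -0.26 for Swd3. Next to the other genes of the same WT level, 160 of 1667 rows (9.60%) were lower and 127 (7.62%) higher, with medians of -0.22 and -0.20. Over all neighbours of gene_ rows, 7.998% were lower and 13.0% higher. Leaving out runs of 3 or more limits the first count. Of its 22 lower rows, 16 were not members, and the rest were members themselves, chosen for their fall. The other genes of the same WT level include 15 that stood in runs of 3 or more, so their neighbours were not limited in this way. The shares are therefore not like for like, and neither difference was tested.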

How the data were processed

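RNA-seq of mycelium was measured in 9 libraries, 3 each of the Set1 knockout, the Swd3 knockout and WT, grouped by sample title. The authors deposited 1 table of FPKM values with a column per library and 9869 rows. Per the submitters' processing notes, the tools were FastQC, HISAT2 and StringTie. Versions, settings, build, annotation and strand use were not given in the sources consulted. Depth is unknown, so no counting interval was computed.

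The rule was applied to group means of the deposited FPKM with a pseudocount of 1. For the calls, genes with at least 1 FPKM in at least 3 libraries (9153, all 96 members included) were taken as log2(FPKM + 1), which understates the change of low genes. One linear model over the 9 libraries was fitted with limma 3.58.1 (R 4.3.3), moderating variances with an intensity trend. P-values were two-sided and adjusted by Benjamini-Hochberg over all genes tested. The fit was tried on simulated data with independent noise in each library and changes in the Set1 knockout alone. Shared shifts of a library were not simulated, so nothing is read from that trial for these data. The pooled SD is that within the 3 genotypes on the same scale.

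The members and all other lists were chosen with earlier results of these data known. Genes were named as the extremes and medians of the members in WT level, change, difference between knockouts and spread, as the nearest genes to each limit, and as the 3 most abundant pairs of consecutive members. Gene lists by function were not used, because 0 of the 9869 rows were found in the reference list. Alternatives covered the pseudocount, the filter, 3 scalings, robust moderation, the replicate number as a block, fits to the compared groups alone, each library left out and group medians in the rule.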

Additional observations from a re-analysis of the deposited data

How the results depend on the processing

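The rule gave 96 members, and 80 to 103 under its 15 alternatives (96 to 103 without single libraries). Of the 96, 92 were found in each of the 9 runs without 1 library and 74 under every setting. Quantile normalization kept 76 and median-of-ratios scaling 85 of them. All 96 remained called lower in both knockouts under all 19 alternatives of the fit. In the main fit 43.3% of genes tested were called lower in the Set1 knockout and 42.5% in the Swd3 knockout. Nothing is read from the calls of the members, because the rule used both contrasts. Calls over all genes were 7422 in the Set1 knockout (7086 to 7494 without single libraries) and 7388 in the Swd3 knockout (7071 to 7364). Between the knockouts 1173 genes were called. Leaving out single libraries gave 733 (without Swd3 replicate 2) to 1251, and 757 without Set1 replicate 3. The 20 members called higher in Swd3 ranged from 14 to 20 without single libraries, and the 4 called lower from 2 to 5. The 4 became 2 with a common total, 7 with median of ratios, 8 with quantile normalization and 2 with the compared groups alone, and the cause was not tested. Of the 65 differences past the threshold for named genes, none reversed, and 8 of 1235 values lost the call, all between the knockouts (gene_5029, gene_6289 and gene_5491). With the replicate number as a block, 20 members were called higher and 5 lower in Swd3, and all genes called numbered 7521, 7518 and 1369. Whether equal replicate numbers mark a pairing is not known, and the main fit took none. Deviations correlated over 0.1 in 4 of the 9 pairs of libraries with equal numbers, with a range of -0.13 to 0.30. These values do not decide the question. Unknown depth limits what can be said of the lowest values.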
